A study of Oryctolagus cuniculus with 12 samples.

Results

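The mitosis and cytokinesis genes are 40 named members, chosen by gene symbol, whose products build the spindle, hold chromosomes to it, time their separation and divide the cell. Of the 40, 36 were found among the 14621 genes of the count table, 32 by the deposited gene name and 4 by the symbol of the deposited Entrez identifier. CCNB1, CDC20, BIRC5 and ASPM were not analysed here. Every one of the 36 passed the filter on low counts and was tested. They were measured by bulk RNA sequencing of wild-type rabbit (Oryctolagus cuniculus) tissue from the temporomandibular joint, the hinge of the lower jaw. There were 4 groups of 3 libraries: control superficial zone cells, OA superficial zone cells, control condylar cartilage cells and OA condylar cartilage cells, where OA is osteoarthritis. The superficial zone is the fibrous surface layer of the condyle and the condylar cartilage lies beneath it. OA was induced by surgery, in which a 2.5 mm punch removed a piece of the disc that cushions the joint, with its attachments left in place. The labels do not give the strain, sex or age, the time after surgery, whether control joints were operated on, or whether a replicate number stands for 1 animal. The p-values therefore measure the spread between these samples.

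Most cells of an adult tissue are not dividing, and the genes described here are transcribed in the cells that are, rising as a cell nears mitosis and being shut off after it. In cells outside the cycle a repressor complex, DREAM, with the retinoblastoma family holds many of them down, and in cycling cells the factors B-MYB and FOXM1 switch them on. MKI67, whose protein is the Ki-67 antigen, is the usual tissue marker of cells in cycle. In the growing condyle the dividing cells lie in a thin layer just under the fibrous surface. In bulk tissue, fewer dividing cells and less of each RNA per cell cannot be told apart.

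Library totals ran from 7326255 to 16769536 counts. In each OA group a pair of libraries was nearly the same: 2 and 3 in the superficial zone, and 1 and 2 in the cartilage. Their coefficient of biological variation was 0.042 and 0.060, where other pairs of the same group gave 0.217 to 0.631, so each of these pairs was summed and counted as 1 sample. The tests thus had 3, 2, 3 and 2 samples for control superficial zone, OA superficial zone, control cartilage and OA cartilage. Separately, the libraries labelled control cartilage 3 and OA superficial zone 1 went against their groups. The summed level of 11 cartilage markers, collagen COL2A1 among them, was 6332 CPM in control cartilage library 3 against 88385 and 119939 CPM in its partners, and 82715 CPM in OA superficial zone library 1 against 7016 and 7105 CPM in its partners. CPM are counts per 1000000 of the library total after TMM scaling. Both libraries were kept in the groups their labels give, and whether these labels are right was not tested. Counts past the adjusted threshold are given with and without these 2 libraries for the superficial zone, the difference of the OA effects and the OA zones. Without both, a median is given for the superficial zone, and for the cartilage 1 without control cartilage library 3. Counts at the unadjusted threshold, counts without overlap and the count of opposite directions include both libraries. Single genes are given without a library where it stood farthest from its partners. As a check of the zone labels, all 11 cartilage markers had a higher mean in control cartilage than in control superficial zone. Of 9 superficial zone and fibrous markers, 7 had a lower one, among them the surface lubricant PRG4, and 2 a higher one. The summed level of these 9 went the other way. It was 107126 to 131324 CPM in control superficial zone and 180848 to 375047 CPM in control cartilage. In control cartilage library 3, however, the cartilage marker sum lay below the 13223 to 25817 CPM of the control superficial zone libraries. In OA joints the check was less clear: 6 of the 11 cartilage markers had a higher mean in cartilage and 5 a lower one. There 7 of the 9 superficial zone and fibrous markers were again lower in cartilage.

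The 36 genes shared 1 pattern over the 4 groups: they were lowest in the OA superficial zone and, for most of them, highest in OA cartilage, with both control zones between. The median level of the 36 was 10.1, 9.56 and 8.81 CPM in the control superficial zone libraries and 3.104, 1.81 and 2.02 CPM in the OA superficial zone libraries. In the cartilage it was 9.66, 11.2 and 6.74 CPM in control and 18.6, 19.0 and 11.4 CPM in OA. The group mean was lowest in the OA superficial zone for all 36, and highest in OA cartilage for 30, in the control superficial zone for 4 and in control cartilage for 2. The library with the lowest value was an OA superficial zone library for all 36. No member was at 0 in any library. In the OA superficial zone 8 members were under 10 counts in some library, and the lowest count was 4, so single values there carry wide counting error. Within groups, OA superficial zone library 1 was the highest of its group for 27 of the 36, and over all 36 its ratio to the mean of its partners had a median of 1.59. Control cartilage library 3 was the lowest of its group for 32, and OA cartilage library 3 for 34.

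**Figure D1:**
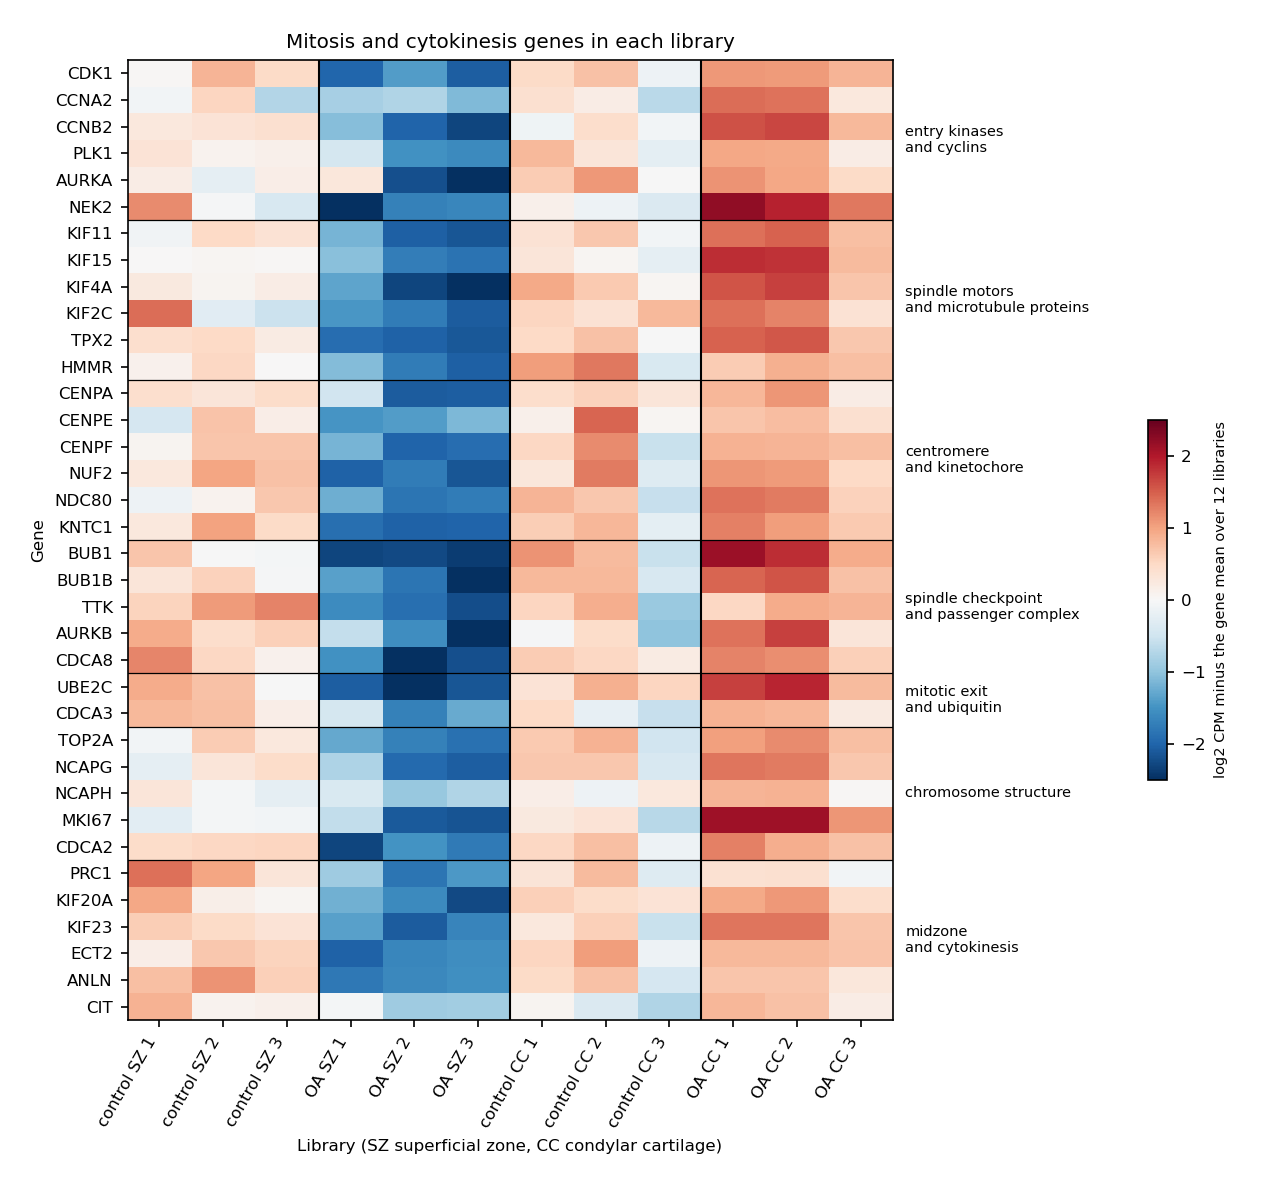
Heat map of the 36 mitosis and cytokinesis genes (rows, grouped by role) in the 12 libraries (columns, grouped by zone and state), coloured by log2 CPM minus the gene's mean over the 12 libraries. The 3 OA superficial zone columns are the lowest of the map, control columns lie near the middle, and OA cartilage libraries 1 and 2 are the highest for most genes, with library 3 paler.

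Per unit length, the scale on which genes can be set against each other, group means ran from 1.95 to 31.1 TPM in the control superficial zone (median 9.60 TPM), 0.422 to 9.29 TPM in the OA superficial zone (1.55 TPM), 3.14 to 31.8 TPM in control cartilage (9.69 TPM) and 3.09 to 90.0 TPM in OA cartilage (14.1 TPM). TPM, transcripts per 1000000, is the deposited value. The order of the genes was not the same in every group. The passenger complex subunit CDCA8 had the highest mean TPM in the control superficial zone, the topoisomerase TOP2A in control cartilage and MKI67 in OA cartilage, where its 90.0 TPM was followed by UBE2C at 44.5 TPM. In the OA superficial zone CIT, at 9.29 TPM, and NCAPH, at 8.03 TPM, led the order. HMMR was the lowest of the 36 in all 4 groups.

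**Figure D2:**
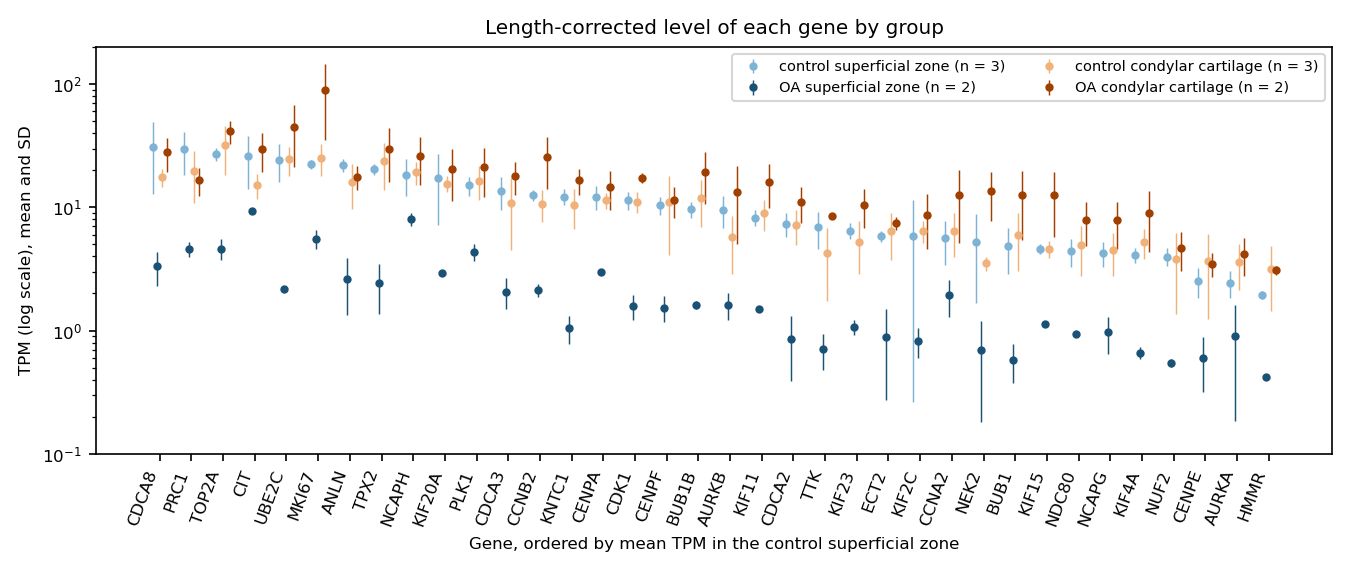
Mean TPM (log axis) of each of the 36 genes in the 4 groups. The OA superficial zone values lie lowest, from 0.422 to 9.29 TPM, and MKI67 in OA cartilage is the highest value, at 90.0 TPM.

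Entry into mitosis depends on the kinase CDK1 with its A- and B-type cyclins, and on further kinases that ripen the centrosomes. Of the 6 entry kinases and cyclins found, 3 were higher in OA cartilage than in OA superficial zone past an adjusted p of 0.05 (CDK1, CCNB2 and NEK2), where 2.38% of all genes tested were higher. CDK1, the kinase whose activity drives a cell into mitosis, was at 5.02, 8.87 and 6.82 CPM in libraries 1, 2 and 3 of the control superficial zone, and at 1.24, 1.87 and 1.18 CPM in the OA superficial zone. In the cartilage CDK1 stood at 6.84, 8.21 and 4.49 CPM in control and 10.4, 10.3 and 8.87 CPM in OA. CDK1 was lower in every OA library than in any control library of the superficial zone, and higher in every OA library than in any control library of the cartilage. CDK1 had a log2 fold change from control to OA of -2.30 ± 0.45 in the superficial zone and 0.56 ± 0.40 in the cartilage, and OA cartilage stood 6.83-fold above OA superficial zone (log2 2.77 ± 0.48, edgeR adjusted p = 0.0108). CCNB2, a B-type cyclin that binds and activates CDK1, had 7.36, 7.72 and 8.07 CPM in the control superficial zone against 2.897, 1.52 and 1.24 CPM in OA. Cartilage values of CCNB2 were 5.63, 8.28 and 5.84 CPM in control and 18.4, 19.3 and 10.7 CPM in OA. Neither zone had CCNB2 values that overlapped between OA and control, OA being the lower in the superficial zone and the higher in the cartilage, with OA cartilage library 3 below its 2 partners. For CCNB2 the log2 difference between control and OA was -1.91 ± 0.46 in the superficial zone and 1.17 ± 0.41 in the cartilage, and the OA zones differed by 2.85 ± 0.50 (edgeR adjusted p = 0.0112). Levels of NEK2, a kinase that helps the duplicated centrosomes part, were 7.24, 3.13 and 2.41 CPM in the control superficial zone and 0.552, 0.992 and 1.02 CPM in OA. For NEK2 the cartilage libraries gave 3.497, 2.93 and 2.47 CPM in control and 14.8, 12.04 and 7.93 CPM in OA. OA and control libraries of NEK2 did not overlap in either zone, and lay in opposite order in the 2 zones. NEK2 log2 fold changes with OA were -2.34 ± 0.60 in the superficial zone and 1.85 ± 0.52 in the cartilage, beside 3.68 ± 0.65 between the OA zones (edgeR adjusted p = 0.0121). The other 3 were nearer to level across the groups. CCNA2, the A-type cyclin, spanned 5.03 to 12.2 CPM in control and 3.88 to 4.96 CPM in OA superficial zone, and 5.28 to 11.1 CPM in control and 10.1 to 22.2 CPM in OA cartilage. CCNA2 had a log2 difference between the OA zones of 1.82 ± 0.55 (edgeR adjusted p = 0.0703), against -0.89 ± 0.51 for OA in the superficial zone and 0.89 ± 0.48 for OA in the cartilage. PLK1, the polo-like kinase of spindle assembly and exit, spanned 17.8 to 21.1 CPM in control and 5.55 to 12.3 CPM in OA superficial zone, and 14.2 to 29.3 CPM in control and 18.8 to 32.7 CPM in OA cartilage. PLK1 had a log2 difference between the OA zones of 1.53 ± 0.47 (edgeR adjusted p = 0.0744), against -1.10 ± 0.44 for OA in the superficial zone and 0.27 ± 0.42 for OA in the cartilage. AURKA is the kinase that TPX2 switches on at the spindle poles. AURKA was the only member whose OA and control libraries overlapped in the superficial zone, with 2.45, 1.84 and 2.41 CPM in control and 2.62, 0.467 and 0.377 CPM in OA. Library 1 of the OA superficial zone was 6.21 times the mean of its partners for AURKA, the widest such gap of the 36. The AURKA log2 fold change with OA in the superficial zone was -0.68 ± 0.72 with that library and -2.38 ± 0.66 without it, where the OA superficial zone is 1 sample assumed to vary like the other groups, and edgeR passed neither (adjusted p = 0.697 and 0.268). In the cartilage AURKA spanned 2.13 to 4.54 CPM in control and 2.98 to 4.68 CPM in OA, a log2 difference of 0.15 ± 0.66.

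Kinesin motors and microtubule proteins push the spindle poles apart and shape the fibres between them. Of the 6 found, 5 were higher in OA cartilage than in OA superficial zone past the threshold. TPX2, which nucleates spindle microtubules and activates AURKA, was at 27.9, 29.1 and 23.8 CPM in libraries 1, 2 and 3 of the control superficial zone, and at 5.52, 5.14 and 4.74 CPM in the OA superficial zone. In the cartilage TPX2 stood at 29.3, 34.3 and 20.6 CPM in control and 57.9, 60.8 and 33.1 CPM in OA. TPX2 in the OA superficial zone lay wholly below the controls, while OA and control values overlapped in the cartilage, with OA cartilage library 3 below its 2 partners. TPX2 had a log2 fold change from control to OA of -2.37 ± 0.38 in the superficial zone and 0.72 ± 0.34 in the cartilage, and OA cartilage stood 8.87-fold above OA superficial zone (log2 3.15 ± 0.41, edgeR adjusted p = 0.00814). KIF11, the plus-end motor that drives the poles apart, had 15.4, 23.1 and 20.97 CPM in the control superficial zone against 7.31, 3.97 and 3.72 CPM in OA. Cartilage values of KIF11 were 21.1, 26.1 and 15.6 CPM in control and 42.4, 45.3 and 27.6 CPM in OA. Neither zone had KIF11 values that overlapped between OA and control, OA being the lower in the superficial zone and the higher in the cartilage. For KIF11 the log2 difference between control and OA was -1.86 ± 0.42 in the superficial zone and 0.77 ± 0.38 in the cartilage, and the OA zones differed by 2.71 ± 0.45 (edgeR adjusted p = 0.009998). Levels of KIF15, a motor that keeps the spindle bipolar beside KIF11, were 10.9, 11.3 and 11.1 CPM in the control superficial zone and 5.24, 3.27 and 3.02 CPM in OA. For KIF15 the cartilage libraries gave 13.4, 11.2 and 9.33 CPM in control and 39.3, 37.96 and 18.8 CPM in OA. OA and control libraries of KIF15 did not overlap in either zone, and lay in opposite order in the 2 zones, with OA cartilage library 3 below its 2 partners. KIF15 log2 fold changes with OA were -1.43 ± 0.41 in the superficial zone and 1.35 ± 0.38 in the cartilage, beside 2.80 ± 0.45 between the OA zones (edgeR adjusted p = 0.00928). KIF4A, a motor carried on chromosome arms and later on the midzone, was at 8.47, 7.57 and 8.18 CPM in libraries 1, 2 and 3 of the control superficial zone, and at 2.897, 1.46 and 1.24 CPM in the OA superficial zone. In the cartilage KIF4A stood at 13.8, 11.3 and 7.42 CPM in control and 21.5, 23.6 and 11.7 CPM in OA. KIF4A in the OA superficial zone lay wholly below the controls, while OA and control values overlapped in the cartilage, with OA cartilage library 3 below its 2 partners. KIF4A had a log2 fold change from control to OA of -1.99 ± 0.49 in the superficial zone and 0.66 ± 0.43 in the cartilage, and OA cartilage stood 8.45-fold above OA superficial zone (log2 3.08 ± 0.53, edgeR adjusted p = 0.0108). KIF2C, which takes microtubules apart at centromeres, had 11.9, 3.75 and 3.15 CPM in the control superficial zone against 1.66, 1.34 and 1.08 CPM in OA. Cartilage values of KIF2C were 6.54, 5.86 and 7.98 CPM in control and 11.8, 10.8 and 5.83 CPM in OA. KIF2C did not overlap between OA and control in the superficial zone but did in the cartilage, with OA cartilage library 3 below its 2 partners. For KIF2C the log2 difference between control and OA was -2.15 ± 0.64 in the superficial zone and 0.34 ± 0.56 in the cartilage, and the OA zones differed by 2.61 ± 0.68 (edgeR adjusted p = 0.0449). HMMR, the hyaluronan-mediated motility receptor, which also sits on the spindle, spanned 1.78 to 2.52 CPM in control and 0.431 to 0.828 CPM in OA superficial zone, and 1.35 to 4.396 CPM in control and 2.73 to 3.26 CPM in OA cartilage. HMMR had a log2 difference between the OA zones of 2.26 ± 0.68 (edgeR adjusted p = 0.0699), against -1.74 ± 0.65 for OA in the superficial zone and -0.07 ± 0.57 for OA in the cartilage. HMMR was 1 of 3 members with a negative log2 fold change in OA cartilage, and its OA and control cartilage libraries overlapped.

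Kinetochores form on centromeres marked by the histone variant CENPA and grip microtubules through the NDC80 complex. Of the 6 genes of this kind, 4 were higher in OA cartilage than in OA superficial zone past the threshold. Levels of NDC80, the subunit that gives the microtubule-binding complex its name, were 3.79, 4.43 and 6.61 CPM in the control superficial zone and 1.79, 1.17 and 1.24 CPM in OA. For NDC80 the cartilage libraries gave 7.45, 6.59 and 2.81 CPM in control and 10.6, 10.2 and 6.23 CPM in OA. OA values of NDC80 were the lower without overlap in the superficial zone and mixed with controls in the cartilage, with control cartilage library 3 below its 2 partners. NDC80 log2 fold changes with OA were -1.75 ± 0.55 in the superficial zone and 0.58 ± 0.49 in the cartilage, beside 2.51 ± 0.59 between the OA zones (edgeR adjusted p = 0.0321). NUF2, its partner in that complex, was at 5.35, 8.87 and 7.45 CPM in libraries 1, 2 and 3 of the control superficial zone, and at 1.104, 1.34 and 1.02 CPM in the OA superficial zone. In the cartilage NUF2 stood at 5.47, 11.1 and 3.595 CPM in control and 9.64, 9.34 and 6.30 CPM in OA. NUF2 in the OA superficial zone lay wholly below the controls, while OA and control values overlapped in the cartilage. NUF2 had a log2 fold change from control to OA of -2.65 ± 0.56 in the superficial zone and 0.23 ± 0.48 in the cartilage, and OA cartilage stood 6.86-fold above OA superficial zone (log2 2.78 ± 0.59, edgeR adjusted p = 0.0223). KNTC1, a subunit of the complex that brings the checkpoint and dynein to kinetochores, had 23.8, 40.2 and 27.7 CPM in the control superficial zone against 5.38, 4.902 and 5.01 CPM in OA. Cartilage values of KNTC1 were 30.4, 35.4 and 16.7 CPM in control and 47.8, 41.3 and 31.6 CPM in OA. KNTC1 did not overlap between OA and control in the superficial zone but did in the cartilage, with control cartilage library 3 below its 2 partners. For KNTC1 the log2 difference between control and OA was -2.57 ± 0.42 in the superficial zone and 0.47 ± 0.37 in the cartilage, and the OA zones differed by 2.88 ± 0.45 (edgeR adjusted p = 0.00928). Levels of CENPF, a large protein of the outer kinetochore, were 16.05, 25.0 and 24.7 CPM in the control superficial zone and 6.899, 3.85 and 4.09 CPM in OA. For CENPF the cartilage libraries gave 21.9, 34.7 and 10.4 CPM in control and 28.03, 27.6 and 26.01 CPM in OA. OA values of CENPF were the lower without overlap in the superficial zone and mixed with controls in the cartilage, with control cartilage library 3 below its 2 partners. CENPF log2 fold changes with OA were -2.04 ± 0.51 in the superficial zone and 0.27 ± 0.46 in the cartilage, beside 2.33 ± 0.54 between the OA zones (edgeR adjusted p = 0.0302). CENPA, the centromeric histone, spanned 6.65 to 7.45 CPM in control and 1.28 to 3.86 CPM in OA superficial zone, and 6.63 to 8.06 CPM in control and 6.097 to 11.6 CPM in OA cartilage. CENPA had a log2 difference between the OA zones of 1.77 ± 0.53 (edgeR adjusted p = 0.0689), against -1.54 ± 0.50 for OA in the superficial zone and 0.19 ± 0.46 for OA in the cartilage. For CENPA, OA superficial zone library 1 was 2.999 times the mean of its partners. CENPE, a kinetochore motor that carries chromosomes to the spindle equator, spanned 6.58 to 14.4 CPM in control and 3.17 to 4.04 CPM in OA superficial zone, and 9.101 to 24.2 CPM in control and 11.6 to 15.03 CPM in OA cartilage. CENPE had a log2 difference between the OA zones of 1.92 ± 0.56 (edgeR adjusted p = 0.0628), against -1.57 ± 0.52 for OA in the superficial zone and -0.13 ± 0.48 for OA in the cartilage.

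The spindle checkpoint holds anaphase back until every chromosome is attached, and the chromosomal passenger complex, with AURKB as its kinase, corrects wrong attachments. Of the 5 such genes found, 4 were higher in OA cartilage than in OA superficial zone past the threshold, all but AURKB. BUB1, a checkpoint kinase at the kinetochore, was at 10.9, 6.73 and 6.502 CPM in libraries 1, 2 and 3 of the control superficial zone, and at 1.38, 1.401 and 1.29 CPM in the OA superficial zone. In the cartilage BUB1 stood at 14.7, 11.7 and 4.61 CPM in control and 29.6, 24.3 and 12.8 CPM in OA. BUB1 in the OA superficial zone lay wholly below the controls, while OA and control values overlapped in the cartilage, with OA cartilage library 3 below its 2 partners. BUB1 had a log2 fold change from control to OA of -2.55 ± 0.59 in the superficial zone and 0.95 ± 0.50 in the cartilage, and OA cartilage stood 14.6-fold above OA superficial zone (log2 3.86 ± 0.63, edgeR adjusted p = 0.00942). BUB1 had the largest difference between the OA zones of the 36. BUB1B, the checkpoint protein that, bound with CDC20, blocks the anaphase-promoting complex, had 18.4, 22.02 and 14.5 CPM in the control superficial zone against 5.79, 4.202 and 2.37 CPM in OA. Cartilage values of BUB1B were 26.2, 26.1 and 11.2 CPM in control and 40.6, 44.3 and 24.6 CPM in OA. BUB1B did not overlap between OA and control in the superficial zone but did in the cartilage, with control cartilage library 3 below its 2 partners. For BUB1B the log2 difference between control and OA was -2.05 ± 0.49 in the superficial zone and 0.67 ± 0.43 in the cartilage, and the OA zones differed by 2.92 ± 0.52 (edgeR adjusted p = 0.0125). Levels of TTK, the kinase that starts the checkpoint signal, were 6.58, 9.405 and 10.7 CPM in the control superficial zone and 1.52, 1.23 and 0.969 CPM in OA. For TTK the cartilage libraries gave 6.54, 8.499 and 2.36 CPM in control and 6.41, 8.51 and 8.06 CPM in OA. OA values of TTK were the lower without overlap in the superficial zone and mixed with controls in the cartilage, with control cartilage library 3 below its 2 partners. TTK log2 fold changes with OA were -2.80 ± 0.58 in the superficial zone and 0.42 ± 0.49 in the cartilage, beside 2.60 ± 0.60 between the OA zones (edgeR adjusted p = 0.0296). CDCA8, the borealin subunit of the passenger complex, was at 13.8, 8.56 and 6.397 CPM in libraries 1, 2 and 3 of the control superficial zone, and at 2.07, 1.05 and 1.29 CPM in the OA superficial zone. In the cartilage CDCA8 stood at 9.28, 8.499 and 6.85 CPM in control and 14.1, 13.4 and 9.01 CPM in OA. CDCA8 in the OA superficial zone lay wholly below the controls, while OA and control values overlapped in the cartilage. CDCA8 had a log2 fold change from control to OA of -2.62 ± 0.49 in the superficial zone and 0.48 ± 0.42 in the cartilage, and OA cartilage stood 7.296-fold above OA superficial zone (log2 2.87 ± 0.52, edgeR adjusted p = 0.0127). AURKB, the kinase of the passenger complex, had 5.57, 3.98 and 4.404 CPM in the control superficial zone against 1.93, 0.992 and 0.485 CPM in OA. Cartilage values of AURKB were 2.89, 4.03 and 1.46 CPM in control and 7.52, 9.56 and 3.59 CPM in OA. AURKB did not overlap between OA and control in the superficial zone but did in the cartilage, with OA cartilage library 3 below its 2 partners. For AURKB the log2 difference between control and OA was -1.89 ± 0.65 in the superficial zone and 1.12 ± 0.58 in the cartilage, and the OA zones differed by 2.29 ± 0.69 (edgeR adjusted p = 0.0696).

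Exit from mitosis is set off when the anaphase-promoting complex marks cyclins and securin for destruction. Of the 2 genes found in the group of mitotic exit and ubiquitin genes, UBE2C passed the threshold between the OA zones and CDCA3 did not. Levels of UBE2C, the ubiquitin-conjugating enzyme of that complex, were 5.46, 4.74 and 2.83 CPM in the control superficial zone and 0.6899, 0.233 and 0.646 CPM in OA. For UBE2C the cartilage libraries gave 3.65, 5.28 and 4.16 CPM in control and 9.36, 10.7 and 4.95 CPM in OA. OA values of UBE2C were the lower without overlap in the superficial zone and mixed with controls in the cartilage, with OA cartilage library 3 below its 2 partners. UBE2C log2 fold changes with OA were -2.996 ± 0.58 in the superficial zone and 0.78 ± 0.47 in the cartilage, beside 3.79 ± 0.61 between the OA zones (edgeR adjusted p = 0.00928). UBE2C had the most negative log2 fold change of the 36 between control and OA superficial zone. CDCA3, a ubiquitin ligase adaptor that helps mitosis begin, was at 8.58, 8.26 and 5.45 CPM in libraries 1, 2 and 3 of the control superficial zone, and at 3.59, 1.52 and 2.05 CPM in the OA superficial zone. In the cartilage CDCA3 stood at 6.84, 4.25 and 3.26 CPM in control and 8.92, 8.67 and 5.69 CPM in OA. CDCA3 in the OA superficial zone lay wholly below the controls, while OA and control values overlapped in the cartilage. CDCA3 had a log2 fold change from control to OA of -1.51 ± 0.50 in the superficial zone and 0.61 ± 0.47 in the cartilage, and OA cartilage stood 2.78-fold above OA superficial zone (log2 1.47 ± 0.53, edgeR adjusted p = 0.1102).

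Chromosomes are untangled by topoisomerase, folded by condensin and coated by Ki-67. Of the 5 genes found, 4 were higher in OA cartilage than in OA superficial zone past the threshold, all but NCAPH. TOP2A, the topoisomerase that untangles sister chromatids, had 26.9, 43.7 and 34.2 CPM in the control superficial zone against 11.7, 8.75 and 7.75 CPM in OA. Cartilage values of TOP2A were 44.6, 52.02 and 20.2 CPM in control and 57.6, 64.6 and 47.5 CPM in OA. TOP2A did not overlap between OA and control in the superficial zone but did in the cartilage, with control cartilage library 3 below its 2 partners. For TOP2A the log2 difference between control and OA was -1.82 ± 0.44 in the superficial zone and 0.48 ± 0.40 in the cartilage, and the OA zones differed by 2.45 ± 0.47 (edgeR adjusted p = 0.0157). Levels of NCAPG, a condensin subunit, were 4.46, 6.35 and 7.13 CPM in the control superficial zone and 3.04, 1.34 and 1.24 CPM in OA. For NCAPG the cartilage libraries gave 8.21, 8.28 and 3.93 CPM in control and 13.04, 12.7 and 8.26 CPM in OA. OA values of NCAPG were the lower without overlap in the superficial zone and mixed with controls in the cartilage, with OA superficial zone library 1 above its 2 partners. NCAPG log2 fold changes with OA were -1.53 ± 0.53 in the superficial zone and 0.64 ± 0.48 in the cartilage, beside 2.36 ± 0.57 between the OA zones (edgeR adjusted p = 0.0357). MKI67, the Ki-67 protein gene, was at 62.5, 72.6 and 71.7 CPM in libraries 1, 2 and 3 of the control superficial zone, and at 48.7, 17.4 and 16.9 CPM in the OA superficial zone. In the cartilage MKI67 stood at 88.3, 95.4 and 46.1 CPM in control and 325, 324 and 162 CPM in OA. MKI67 was lower in every OA library than in any control library of the superficial zone, and higher in every OA library than in any control library of the cartilage, with OA superficial zone library 1 above its 2 partners. MKI67 had a log2 fold change from control to OA of -1.07 ± 0.49 in the superficial zone and 1.67 ± 0.47 in the cartilage, and OA cartilage stood 7.44-fold above OA superficial zone (log2 2.89 ± 0.56, edgeR adjusted p = 0.0157). Library 1 of the OA superficial zone was 2.84 times the mean of its partners for MKI67, and without it, with the spread of the lone OA sample taken from the other groups, the log2 fold change in that zone was -2.01 ± 0.52 (edgeR adjusted p = 0.241). CDCA2, which directs a phosphatase to chromosomes as mitosis ends, had 9.25, 9.71 and 9.75 CPM in the control superficial zone against 1.38, 2.39 and 1.99 CPM in OA. Cartilage values of CDCA2 were 9.73, 11.4 and 6.18 CPM in control and 16.3, 12.6 and 11.2 CPM in OA. CDCA2 did not overlap between OA and control in the superficial zone but did in the cartilage. For CDCA2 the log2 difference between control and OA was -2.37 ± 0.42 in the superficial zone and 0.50 ± 0.37 in the cartilage, and the OA zones differed by 2.80 ± 0.44 (edgeR adjusted p = 0.00928). NCAPH, another condensin subunit, spanned 16.99 to 24.7 CPM in control and 10.4 to 15.3 CPM in OA superficial zone, and 18.3 to 23.9 CPM in control and 20.3 to 36.4 CPM in OA cartilage. NCAPH had a log2 difference between the OA zones of 1.102 ± 0.38 (edgeR adjusted p = 0.0988), against -0.62 ± 0.35 for OA in the superficial zone and 0.39 ± 0.34 for OA in the cartilage. NCAPH had the log2 fold change nearest to 0 of the 36 in the superficial zone.

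At the end of mitosis the midzone of the spindle places a contractile ring, which splits the cell. Of the 6 genes found, 4 were higher in OA cartilage than in OA superficial zone past the threshold (KIF20A, KIF23, ECT2 and ANLN). Levels of ANLN, the anillin scaffold of the ring, were 35.7, 46.03 and 31.98 CPM in the control superficial zone and 6.07, 6.89 and 7.27 CPM in OA. For ANLN the cartilage libraries gave 29.3, 34.95 and 15.8 CPM in control and 34.2, 34.1 and 25.5 CPM in OA. OA values of ANLN were the lower without overlap in the superficial zone and mixed with controls in the cartilage, with control cartilage library 3 below its 2 partners. ANLN log2 fold changes with OA were -2.52 ± 0.41 in the superficial zone and 0.16 ± 0.36 in the cartilage, beside 2.17 ± 0.42 between the OA zones (edgeR adjusted p = 0.0158). ECT2, the exchange factor that activates RhoA at the equator, was at 5.68, 8.105 and 7.45 CPM in libraries 1, 2 and 3 of the control superficial zone, and at 1.24, 1.63 and 1.72 CPM in the OA superficial zone. In the cartilage ECT2 stood at 7.299, 10.5 and 4.61 CPM in control and 8.92, 8.84 and 8.33 CPM in OA. ECT2 in the OA superficial zone lay wholly below the controls, while OA and control values overlapped in the cartilage. ECT2 had a log2 fold change from control to OA of -2.24 ± 0.46 in the superficial zone and 0.20 ± 0.41 in the cartilage, and OA cartilage stood 5.73-fold above OA superficial zone (log2 2.52 ± 0.49, edgeR adjusted p = 0.0158). KIF23, the motor of the centralspindlin complex, had 11.4, 10.4 and 9.44 CPM in the control superficial zone against 2.897, 1.75 and 2.37 CPM in OA. Cartilage values of KIF23 were 8.97, 11.3 and 5.06 CPM in control and 18.8, 18.7 and 11.99 CPM in OA. Neither zone had KIF23 values that overlapped between OA and control, OA being the lower in the superficial zone and the higher in the cartilage, with control cartilage library 3 below its 2 partners. For KIF23 the log2 difference between control and OA was -2.09 ± 0.45 in the superficial zone and 0.87 ± 0.40 in the cartilage, and the OA zones differed by 2.65 ± 0.48 (edgeR adjusted p = 0.0127). Levels of KIF20A, a midzone motor that brings the passenger complex there, were 32.4, 18.3 and 17.2 CPM in the control superficial zone and 7.17, 5.49 and 3.45 CPM in OA. For KIF20A the cartilage libraries gave 25.1, 22.7 and 20.9 CPM in control and 32.1, 35.1 and 22.6 CPM in OA. OA values of KIF20A were the lower without overlap in the superficial zone and mixed with controls in the cartilage. KIF20A log2 fold changes with OA were -1.98 ± 0.41 in the superficial zone and 0.30 ± 0.37 in the cartilage, beside 2.30 ± 0.43 between the OA zones (edgeR adjusted p = 0.0146). PRC1, which bundles midzone microtubules, spanned 18.7 to 39.5 CPM in control and 4.26 to 8.14 CPM in OA superficial zone, and 12.02 to 26.01 CPM in control and 14.4 to 19.8 CPM in OA cartilage. PRC1 had a log2 difference between the OA zones of 1.40 ± 0.48 (edgeR adjusted p = 0.09702), against -2.18 ± 0.47 for OA in the superficial zone and -0.16 ± 0.43 for OA in the cartilage. CIT, citron kinase of the midbody, spanned 50.3 to 86.4 CPM in control and 25.3 to 45.4 CPM in OA superficial zone, and 28.1 to 49.6 CPM in control and 53.4 to 83.7 CPM in OA cartilage. CIT had a log2 difference between the OA zones of 0.92 ± 0.43 (edgeR adjusted p = 0.192), against -0.82 ± 0.40 for OA in the superficial zone and 0.82 ± 0.39 for OA in the cartilage. CIT was the member whose control libraries did not overlap between zones, with cartilage below superficial zone.

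OA against control in the superficial zone asks whether the perforated disc changed these genes in the surface layer. Log2 fold changes were below 0 for all 36, and their median was -1.99 (-2.996 for UBE2C to -0.62 for NCAPH), against 0.05 for all genes tested. OA libraries lay below control libraries without overlap for 35 of the 36, beside 7.72% of all genes tested, the exception being AURKA. By role, the medians ran from -2.55 for the 5 checkpoint and passenger complex genes to -1.51 for the 6 entry kinases and cyclins. With edgeR and near-duplicates summed, 0 of 36 passed an adjusted p of 0.05 in either direction, as did 0% of all genes tested in the lower direction. At an unadjusted p under 0.05, 31 of the 36 were lower, beside 3.33% of all genes. The smallest adjusted p was 0.0633, shared by TPX2, ANLN and KNTC1, and the largest 0.697. The 5 that missed the unadjusted threshold were MKI67, NCAPH, CIT, AURKA and CCNA2. The count past the adjusted threshold changed with how samples were counted, which libraries entered and which test was used. With 12 separate libraries edgeR called 22 of 36 lower (0.702% of all genes), DESeq2 on the 10 samples called 21 (0.781%), and limma-voom called 0. Without control cartilage library 3 and OA superficial zone library 1, a setting that leaves the near-duplicate pair as the lone OA superficial zone sample, assumed to vary like the other groups, edgeR called 23 lower (0.958% of all genes), and the median became -2.39. That count has no check from another OA sample of that zone. Without control cartilage library 3 alone, edgeR called 5 (ANLN, CDCA2, KNTC1, TPX2 and TTK), beside 0.138% of all genes. For the 9 members whose OA superficial zone library 1 was over 2 times the mean of its partners, the log2 fold change ran from -1.99 (KIF4A) to -0.68 (AURKA) with that library and from -2.66 (AURKB) to -1.74 (PLK1) without it, and edgeR passed none of them either way.

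OA against control in the cartilage asks the same of the deeper layer. The values pointed the other way and were smaller: 33 of 36 log2 fold changes were positive, with a median of 0.53 against -0.03 for all genes tested. The 3 negative ones were PRC1 at -0.16, CENPE at -0.13 and HMMR at -0.07, all positive when libraries were scaled by their totals alone, which moved the median of all genes to 0.23. Without control cartilage library 3, 8 of 36 were negative, with a median of 0.36, and NEK2 was at 1.74 ± 0.61 and MKI67 at 1.40 ± 0.49. NEK2 (1.85 ± 0.52), MKI67 (1.67 ± 0.47), KIF15 (1.35 ± 0.38) and CCNB2 (1.17 ± 0.41) had the largest values. With edgeR 0 of 36 passed the adjusted threshold, beside 0.817% of all genes tested that were higher. These 4 were higher at an unadjusted p under 0.05, beside 5.87% of all genes. OA libraries lay above control libraries without overlap for 8 members (CDK1, CCNB2, NEK2, KIF11, KIF15, MKI67, KIF23 and CIT), beside 15% of all genes. With 12 separate libraries edgeR called KIF15, MKI67 and NEK2 (2.54% of all genes), limma-voom on 10 samples called those and CCNB2 (6.79%), and DESeq2 called MKI67 alone. The shares of members at the unadjusted threshold and without overlap, 11.1% and 22.2%, were less than 2 times those of all genes.

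**Figure D3:**
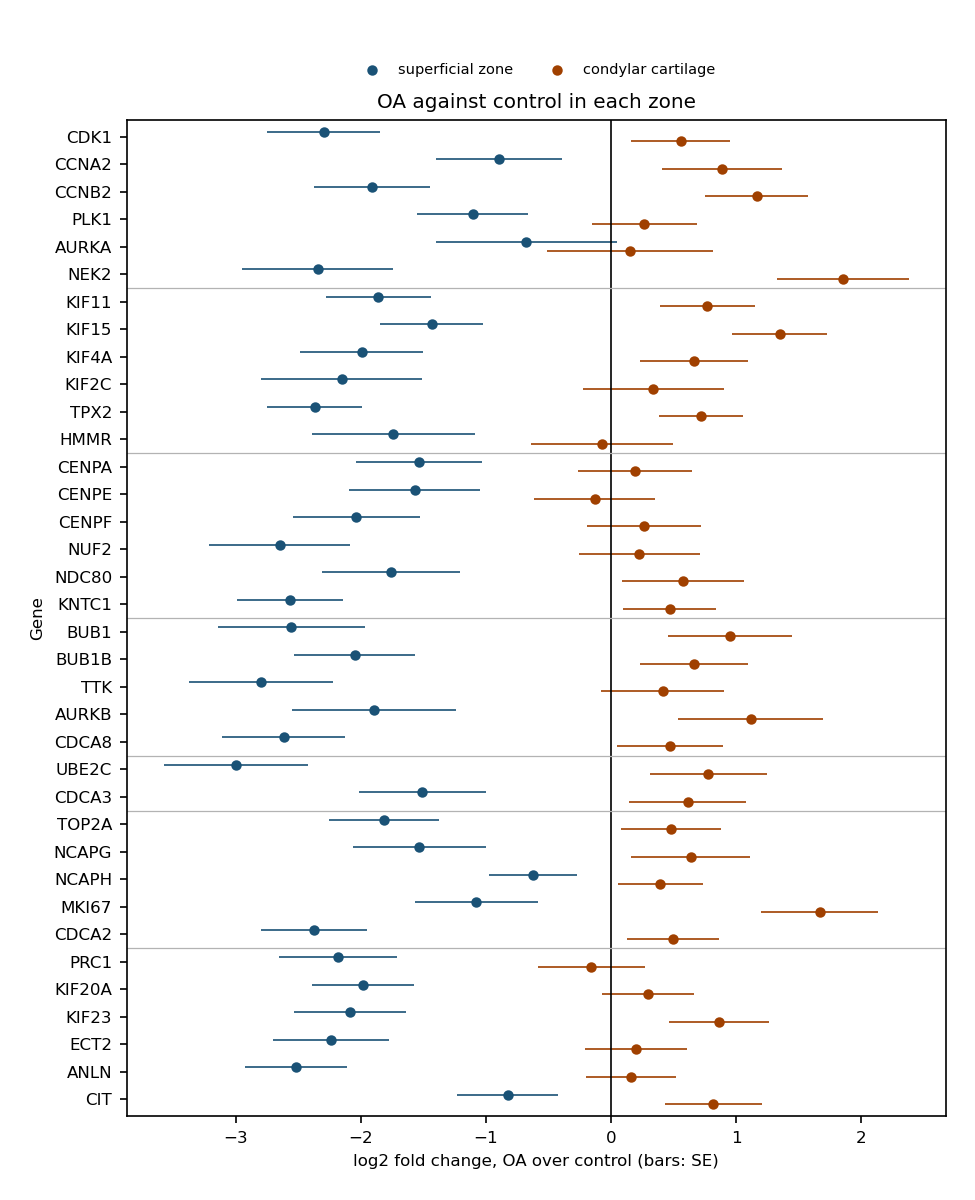
Log2 fold change of OA over control (edgeR, bars are SE) for each of the 36 genes in the superficial zone (3 control and 2 OA samples) and in the cartilage (3 and 2). Every superficial zone value is negative, from -2.996 to -0.62, and cartilage values run from -0.16 to 1.85.

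The difference of the OA effect between zones, cartilage minus superficial zone, was positive for all 36, with a median log2 difference of 2.64 (0.83 for AURKA to 4.20 for NEK2) against -0.02 for all genes tested. For 25 of the 36, every OA superficial zone library lay below its control mean and every OA cartilage library above its own, beside 5.3% of all genes tested. With edgeR the difference itself passed the adjusted threshold for 0 of 36 and for 0% of all genes. At an unadjusted p under 0.05, 32 were higher, beside 3.52% of all genes. The smallest adjusted p was 0.245. With 12 separate libraries edgeR called 21 of 36 (0.53% of all genes), DESeq2 on the 10 samples 19 (0.498%), and edgeR without control cartilage library 3 and OA superficial zone library 1 called 14 (0.575%), with the spread of the lone OA superficial zone sample again taken from the other groups. In limma-voom 0 passed. TPX2, KNTC1, NEK2 and CDCA2 had the smallest p of the 36 in the main model.

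Between the zones of control joints, 22 of 36 log2 differences were positive (cartilage higher) and 14 negative, with a median of 0.03 against 0.02 for all genes tested. Scaled by library totals alone, 5 were positive and 31 negative, with a median of -0.23 against -0.25 for all genes. The differences ran from -0.72 (AURKB) to 0.60 (HMMR). With edgeR, 0 of 36 passed the adjusted threshold, where 4.27% of all genes were lower in cartilage and 3.22% higher. At an unadjusted p under 0.05 it was also 0, where 10.2% of all genes were lower and 8.39% higher, and DESeq2 and limma-voom called 0 past the adjusted threshold. CIT, lower in cartilage, was the 1 member with no overlap, beside 15.8% of all genes.

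Between the zones of OA joints, 25 of 36 genes were higher in cartilage past the adjusted threshold, beside 2.38% of all genes tested. Libraries did not overlap for 36 of 36, beside 23% of all genes, and 34 passed an unadjusted p under 0.05, beside 10.2%. The median log2 difference was 2.56, from 0.92 for CIT to 3.86 for BUB1, against 0.01 for all genes tested. This comparison shares its libraries with the 2 OA comparisons above, so the 3 are not separate evidence. The largest differences were those of BUB1 (3.86 ± 0.63), UBE2C (3.79 ± 0.61), NEK2 (3.68 ± 0.65), TPX2 (3.15 ± 0.41) and KIF4A (3.08 ± 0.53). The 11 that did not pass were CENPE, CENPA, AURKB, HMMR, CCNA2, PLK1, PRC1, NCAPH, CDCA3, CIT and AURKA, with adjusted p of 0.0628 to 0.248 in edgeR. Without OA cartilage library 3, ANLN, CDK1, CENPF, ECT2, KIF2C, NCAPG, NDC80, NUF2, TOP2A and TTK no longer passed. That setting left the near-duplicate pair as the lone OA cartilage sample, assumed to vary like the other groups. The loss therefore cannot be credited to the values of library 3 alone. Calls were also lost without other single libraries, such as CENPF, KIF2C, NCAPG, NDC80 and TTK without control superficial zone library 2. Fitted on the OA groups alone, 2 samples against 2, edgeR called 0 of 36 (0% of all genes), with 32 at an unadjusted p under 0.05 (6.11%), and limma-voom called 0 (0.09%), with 27 unadjusted (5.38%). Without control cartilage library 3 and OA superficial zone library 1, which leaves 1 OA superficial zone sample, it was 32 (5.94% of all genes).

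**Figure D4:**
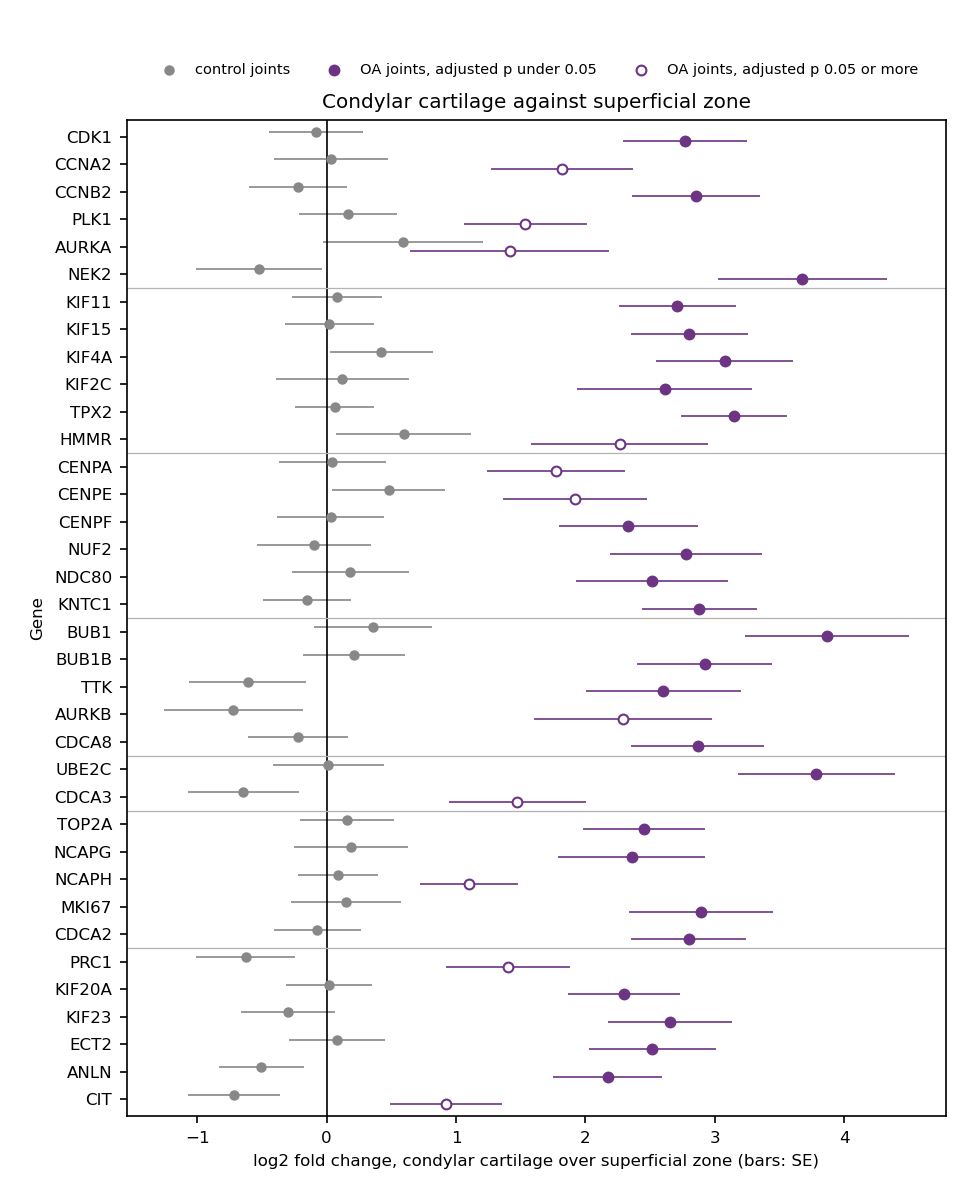
Log2 difference of cartilage over superficial zone (edgeR, bars are SE) for each of the 36 genes in control joints (grey, 3 samples against 3) and OA joints (purple, 2 against 2), filled where the adjusted p is under 0.05. Control values lie around 0, from -0.72 to 0.60, and OA values from 0.92 to 3.86, with 25 filled points.

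Other genes of the cell cycle were read in the same fits: 67 of 79 further mitosis genes, 20 of 23 of DNA replication, 10 of 13 cyclins of the earlier cycle, their kinases and E2F factors, and 13 of 19 CDK inhibitors and DREAM components were found. In the superficial zone the median log2 fold change with OA was -1.48, -1.54, -0.84 and -0.60 for these lists. With edgeR, none of them held a gene past the adjusted threshold in either OA comparison. In the superficial zone 42, 15, 5 and 1 genes were lower at an unadjusted p under 0.05, beside 3.33% of all genes tested. Between the OA zones, 15, 5, 4 and 0 were higher in cartilage past the threshold, beside 2.38% of all genes. The checkpoint recruiter ZWILCH, which works with KNTC1, was at 11.6, 7.26 and 5.56 CPM in the control superficial zone and 1.38, 1.52 and 1.67 CPM in OA, a log2 fold change of -2.42 ± 0.50 (edgeR adjusted p = 0.119). TRIP13, which takes checkpoint complexes apart, had a log2 fold change of -2.32 ± 0.50 there (adjusted p = 0.134). CDC45, part of the helicase that opens DNA for copying, was at 5.80, 4.13 and 5.35 CPM in the control superficial zone and 0.414, 0.409 and 0.431 CPM in OA. Its log2 fold change of -3.58 ± 0.59 was larger in size than that of any of the 36, with an edgeR adjusted p of 0.0633. CDT1, which loads that helicase, had a value of -3.28 ± 0.58 (adjusted p = 0.0873) in edgeR. CDK2 and CDK6, kinases of the earlier cycle, had log2 fold changes of -1.07 ± 0.31 and -0.91 ± 0.32 in the superficial zone. The inhibitor CDKN2C had -1.35 ± 0.33 and the DREAM pocket protein RBL1 -2.44 ± 1.33, with control values of 1.45, 17.1 and 13.6 CPM that overlapped OA values of 2.62, 2.101 and 0.915 CPM. In the cartilage the 2 genes with the smallest p within the mitosis list and within the replication list were KIF14, a midbody kinesin, at 1.33 ± 0.40 on the log2 scale, the centromere protein CENPU at 0.95 ± 0.33, the replication factor MCM10 at 1.14 ± 0.54 and the nucleotide reductase subunit RRM2 at 0.86 ± 0.46. In the list of the earlier cycle they were the E2F factors E2F2 at 3.02 ± 0.77 and E2F8 at 2.02 ± 0.53, the largest values of these lists there (edgeR adjusted p = 0.117 and 0.131). CDKN1B, a CDK inhibitor, and RB1, the 2 of the inhibitor list, were at 0.63 ± 0.29 and 1.86 ± 1.11. Between the OA zones the genes past the threshold were SPC25, DLGAP5, CENPU, PLK4, SGO1, ZWINT, ZWILCH, KIFC1, CENPI, STIL, SPAG5, NCAPG2, RACGAP1, KNL1 and KIF14 of the mitosis list, with log2 differences of 1.79 to 3.65. The replication genes were MCM4, RRM2, CDC45, MCM10 and RRM1 (1.47 to 2.81), and the earlier cycle genes E2F8, E2F7, CCNE1 and CDK6 (1.58 to 3.59). Between the control zones the replication list had a median log2 difference of -0.52, with 19 of 20 values negative. With edgeR, 0 of its genes passed the adjusted threshold there, and 3 of 20 were lower at an unadjusted p under 0.05, near the 10.2% of all genes tested.

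Markers of other cell types also differed between the groups. The summed level of 9 neutrophil and marrow markers (of 10 listed) was 1.67 to 4.36 CPM in the control superficial zone, 196, 11.6 and 11.5 CPM in the OA superficial zone, 0.879 to 12.8 CPM in control cartilage and 1933, 1911 and 582 CPM in OA cartilage. All 9 had a higher mean in OA than in control in both zones. Of the 9, 7 were past the edgeR threshold in the cartilage, beside 0.817% of all genes tested. MMP8, a granule protease of neutrophils, was at 0 in all 6 control libraries. The 6 erythroid markers found (of 8) summed to 12.8 to 20.7 CPM in the control superficial zone, 113, 19.96 and 19.2 CPM in OA superficial zone, 12.02 to 46.4 CPM in control cartilage and 1219, 1163 and 357 CPM in OA cartilage. All 6 had a higher mean in OA in both zones, 4 past the threshold in the cartilage, beside the same 0.817% of all genes. AHSP and RHAG, made in red cell precursors, were at 0 in libraries 1 and 2 of both control groups. Within the OA groups, of 2 samples each, the libraries with more of these markers also had the higher median of the mitosis genes. OA cartilage libraries 1 and 2 stood above library 3 in both, and OA superficial zone library 1 above its partners in both. Control cartilage went the other way. Its library 3 had the highest sums of both marker lists, 12.8 and 46.4 CPM, and the lowest mitosis median, 6.74 CPM. Marrow and red cell precursors divide, and the part of these cells in the cartilage values and in the difference between the OA zones was not tested. In the superficial zone the neutrophil and marrow sum was higher in every OA library than in any control library. The erythroid sum was above the control range in OA library 1 alone. With edgeR, 0 markers of either list passed the threshold there. The mitosis genes were lower in OA in that zone. Skeletal muscle markers (6 found) summed to 13.7 to 157 CPM in the control superficial zone, 283 to 1422 CPM in OA superficial zone, 4.18 to 2378 CPM in control cartilage, the highest being library 3, and 20.1 to 58.8 CPM in OA cartilage. Macrophage and myeloid markers (10 found) summed to 115 to 146 CPM in control superficial zone and 222 to 539.6 CPM in OA, and to 209 to 445 CPM in control cartilage and 369 to 573 CPM in OA. The 4 lymphocyte markers found (of 8) summed to 0.446 to 0.535 CPM in control superficial zone, 1.05 to 6.21 CPM in OA superficial zone, 0.608 to 7.08 CPM in control cartilage and 11.7 to 35.1 CPM in OA cartilage, with all 4 means higher in OA in both zones. CD79B, of B cells, was at 0 in 4 of the 6 control libraries. Markers of bone and vessel cells had lower means in OA cartilage. Against control cartilage this held for 6 of 6 osteoclast markers (sums of 1573 to 2139 against 2691 to 2964 CPM), 8 of 8 osteoblast and osteocyte markers (2268 to 3708 against 4208 to 8896 CPM) and 8 of 8 endothelial markers (269 to 306 against 322 to 520.2 CPM). In the superficial zone OA means were higher for 5 of 6, 6 of 8 and 8 of 8 of these, with sums of 372 to 1332, 314 to 1226 and 322 to 403 CPM in OA and 285 to 516, 481 to 708 and 196 to 218 CPM in control. The 4 adipocyte markers found (of 7) had higher means in OA in both zones. The part of any of these cells in the values of the mitosis genes was likewise not tested.

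**Figure D5:**
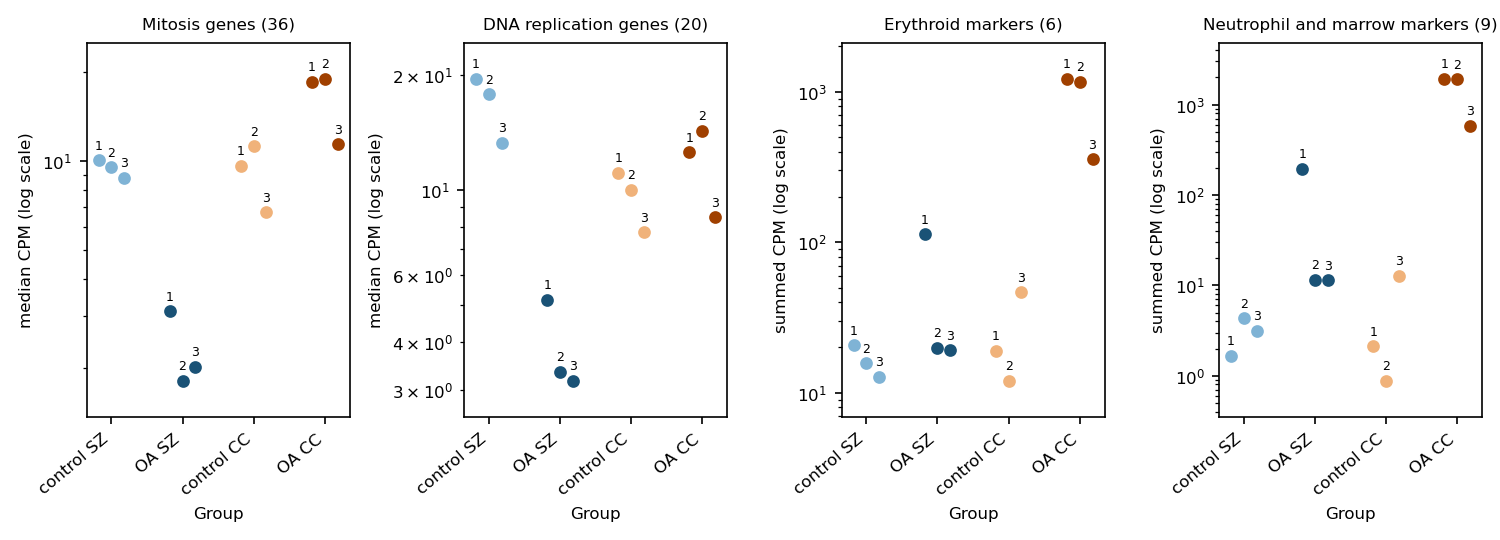
Per-library levels on log axes: median CPM of the 36 mitosis genes and of 20 DNA replication genes, and summed CPM of 6 erythroid and 9 neutrophil and marrow markers, with 1 point for each library, numbered within its group. The mitosis median is lowest in the OA superficial zone (1.81 to 3.10 CPM) and highest in OA cartilage (11.4 to 19.03 CPM), where the marrow marker sum is also highest (582 to 1933 CPM).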

How the data were processed

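Bulk RNA sequencing of 12 libraries, 3 in each of 4 groups, was analysed. Per the labels' protocols, total RNA was depleted of ribosomal RNA and made into directional libraries. Tools named in the submitters' processing notes, without their roles, are Salmon 1.1.0, STAR 2.7.9a, DESeq2 1.26.0, Trim Galore 0.6.7, MultiQC 1.13 and StringTie 2.1.0, with the genome build OryCun2.0. The deposited values are an estimated count per gene and library, in whole numbers, which the file headers call both normalised and raw and which were used as raw. The deposited TPM values sum to 1000000 per library, and the deposited log2 TPM values were not used. No column was left without a sample (0).

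The test was edgeR's quasi-likelihood F test (edgeR 4.0.16, R 4.3.3, with TMM scaling and filterByExpr at a minimum count of 10) in 1 model of 4 groups, with Benjamini-Hochberg adjustment over 14438 genes and a threshold of 0.05. There were 5 comparisons, the difference of OA effects being an interaction contrast. Near-duplicate libraries, whose counts differed by 2.11 and 3.70 times counting noise against 74.0 to 664 times for other pairs, were summed, leaving 10 samples, so means and SDs count each pair once. The SE of a log2 fold change is its size divided by the square root of F. DESeq2 1.42.0, limma-voom (limma 3.58.1), other scalings, no filter, only the groups compared, separate libraries, a replicate block and each library left out were the alternatives. On simulated counts of 14213 genes with 200 genes changed by 3 on the log2 scale, edgeR recovered 197. The changed genes were drawn only from those of higher mean level and of spread below the median. The recovery therefore does not measure power for genes of low level, wide spread or smaller change.

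The members, lists and tests were chosen with earlier results of these data known. Values in every library are given for members past the threshold in any comparison, and for the 2 members of each role with the smallest p in the superficial zone and the 1 in the cartilage. Of other cell cycle lists, genes past the threshold are named, and otherwise the 2 with the smallest p in each OA comparison. Promoter and protein sequences were not used here.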

Additional observations from a re-analysis of the deposited data

Results flagged for a closer look

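For 25 of the 36 mitosis and cytokinesis genes, every OA library lay below the control mean in the superficial zone and every OA library above the control mean in the cartilage. That count carries no test of its own. The difference of the OA effects was tested in edgeR, where 0 of 36 passed an adjusted p of 0.05 and 32 an unadjusted one. Of the 25, the 23 given with their values in every library had the following log2 differences, cartilage effect minus superficial zone effect. The entry kinases and cyclins genes had 2.86 for CDK1, 3.08 for CCNB2 and 4.20 for NEK2. The spindle motors and microtubule proteins genes had 2.63 for KIF11, 2.78 for KIF15, 2.66 for KIF4A and 3.09 for TPX2. The centromere and kinetochore genes had 2.30 for CENPF, 2.33 for NDC80 and 3.03 for KNTC1. The spindle checkpoint and passenger complex genes had 3.50 for BUB1, 2.71 for BUB1B, 3.22 for TTK, 3.01 for AURKB and 3.09 for CDCA8. The mitotic exit and ubiquitin genes had 3.77 for UBE2C and 2.12 for CDCA3. The chromosome structure genes had 2.30 for TOP2A, 2.17 for NCAPG, 2.74 for MKI67 and 2.87 for CDCA2. The midzone and cytokinesis genes had 2.95 for KIF23 and 2.44 for ECT2.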

How the results depend on the processing

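Every median log2 fold change of the 36 genes kept its sign in the OA comparisons under each alternative run. In the superficial zone 0 genes passed in the main model, against 22 with 12 separate libraries, 21 with DESeq2, 2 with only the groups compared and 23 without the 2 libraries that stand apart, where the median was -2.39 and the OA superficial zone is 1 sample. In the cartilage 0 passed, against 3 with separate libraries (2.54% of all genes higher) and 4 with limma-voom (6.79%). DESeq2 called 1 there, and its share of all genes is not given here. For the difference of the OA effects 0 passed, against 21 with separate libraries, 19 with DESeq2 and 14 without the libraries that stand apart, and the median became 3.24 with library totals only, a scaling that moved the median of all genes to 0.50 there. Between the OA zones 25 passed (2.38% of all genes higher), against 0 with limma-voom (0.09%) and 0 with only the groups compared (0%). The cause of these changes was not tested. Some settings hold fewer or more samples, while DESeq2 and limma-voom used the same 10 samples as the main model. Leaving out each library in turn gave 0 to 5 genes and medians of -2.36 to -1.86 in the superficial zone, 0 genes and 0.36 to 0.77 in the cartilage, 0 genes and 2.43 to 2.96 for the difference, 0 genes and -0.13 to 0.14 between the control zones, and 15 to 29 genes and 2.52 to 2.84 between the OA zones. The 5 came without control cartilage library 3, and the 15 without OA cartilage library 3. Single genes were followed for the 27 members chosen for passing the threshold or for the smallest p in their role. Over the settings counted, 1477 of their values kept their side of the threshold, most often a value that had not passed in the main model. A further 173 passed newly and 78 no longer passed, with none reversed in sign past it. All 78 were differences between the OA zones, the only comparison with members past the threshold in the main model. The 9 other members are not in these totals.

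Deviations from the group mean had correlations of -0.26 to 0.29 between samples with the same replicate number. Between samples with different numbers they were -0.40 to 0.30, so the numbers were not read as pairs. Each OA group holds a near-duplicate pair, so these correlations cannot exclude pairing. With 12 separate libraries and the replicate number as a block, edgeR called 21 genes in the superficial zone (0.619% of all genes were lower), 3 in the cartilage (1.91% higher), 22 for the difference (0.557% higher) and 36 between the OA zones (7.92% higher). Counts as low as 4 in the OA superficial zone limit the precision of single genes there.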
